A study of Macaca mulatta with 16 samples.

Results

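The temporal retina of the fetal rhesus monkey, the side on which the fovea forms, was compared between 90 and 50 days of gestation. The members were all genes at 5 CPM (read counts scaled to library size) or more in either temporal column of the deposited mRNA table, which came to 12367 of 28633 genes. Of these, 9946 reached 5 CPM at both ages, 1726 only at 90 days and 695 only at 50 days. Among genes with a symbol, CDH9 lay nearest to that limit inside it, with 4.50 CPM at 90 days, against 5.001 CPM at 50 days. SNORD31 lay nearest outside it, with 0.708 CPM at 90 days, against 4.99 CPM at 50 days.

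The 90-day temporal group was 1 library from retinal punch tissue, read as pairs of ends. The 50-day temporal group was 3 samples, read from a single end, of which the table held only the authors' mean. The animals were rhesus monkey fetuses, and the labels gave no genotype or treatment to any group. Nasal punches at the same ages, 1 library at 90 days and a mean over 3 samples at 50 days, were set beside the temporal ones where a gene differed between the sides. Since there was 1 library at 90 days and no spread at 50 days, no test between the ages could be run, and every ratio below is a value without a replicate check. Age, read layout and the part of the retina in the punch changed together and cannot be told apart, because by the paper's methods a punch took in a larger share of the retina at 50 days and reached past the foveal anlage. The 90-day library held 18778855 reads over all genes. In its column 1 read was worth 0.0506 CPM, so the values were scaled to a library size of 19776050 and not to that total. The depth at 50 days is unknown.

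The primate retina is built from one pool of progenitors that leaves the cell cycle in a fixed order, ganglion cells, horizontal cells and cones first, and bipolar cells, rods and Muller glia later. The centre of the retina runs ahead of the periphery, and the foveal region is among the first to stop dividing. Notch signalling holds cells in the progenitor state, while proneural factors of the basic helix-loop-helix family push them towards neurons.

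The labelled tissue was checked against genes that define the retina. The eye-field and progenitor factors were present at both ages, with PAX6, which ganglion and amacrine cells also keep, at 676 CPM at 90 days, against 776 CPM at 50 days. SIX3 was at 124 CPM at 90 days, against 5.12 CPM at 50 days, RAX at 317 CPM at 90 days, against 35.5 CPM at 50 days and LHX2 at 152 CPM at 90 days, against 36.2 CPM at 50 days. OTX2 and CRX, the factors of photoreceptor and bipolar precursors, were at 300.3 CPM at 90 days against 126 CPM at 50 days and 131 CPM at 90 days against 26.9 CPM at 50 days.

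Ratios are given as log2((90 days + 1)/(50 days + 1)) on the CPM scale, and a gene was called 2-fold when this ratio was 1 or more in size. Over all 12367 genes, 3993 were 2-fold higher at 90 days (32.3%), 2716 were 2-fold lower (22.0%) and 5658 lay between, and the median log2 ratio was 0.16. The counts for each gene group below are to be read against these shares. Whole classes of RNA differed between the 2 columns, and did so on the nasal side as well.

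Small nuclear and nucleolar RNAs, which guide splicing and the modification of other RNAs, were lower at 90 days in 99 of 103 rows kept, with a median log2 ratio of -2.97 (nasal -2.94). The 7SK RNA, which holds back transcription elongation, was at 41.1 CPM at 90 days, against 8311 CPM at 50 days. The U2 spliceosomal RNA was at 0.152 CPM at 90 days, against 1160.0 CPM at 50 days, and SNORD17 at 0.0506 CPM at 90 days, against 268 CPM at 50 days. Their summed level was 208 CPM at 90 days and 13147 CPM at 50 days. HIST genes, which encode the core and linker histones made during DNA replication and whose mRNAs mostly end without a polyA tail, were lower in 36 of 38 rows kept, as in HIST1H1D with 1.62 CPM at 90 days, against 153 CPM at 50 days. Histone variants outside these clusters, a list made after these values were seen, went the other way in 5 of 8. H2AFX was at 88.6 CPM at 90 days, against 0.360 CPM at 50 days, and H1FX at 624 CPM at 90 days, against 12.8 CPM at 50 days.

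Ribosomal protein genes were 2-fold higher at 90 days in 61 of 71 rows kept and lower in none, with a median log2 ratio of 2.70 (nasal 2.16). RPL8 was at 133 CPM at 90 days and listed at 0 at 50 days, and RPS28 was at 169 CPM at 90 days, against 2.79 CPM at 50 days. Of 13 mRNAs encoded by the mitochondrial genome, also a list made after these values were seen, 10 were 2-fold higher. ND4, a subunit of complex I, had 2700.0 CPM at 90 days, against 272 CPM at 50 days, whereas COX1 had 3399 CPM at 90 days, against 4065 CPM at 50 days. Genes for very large proteins, a list made after these values were seen, were lower in 51 of 60, with a median of -2.22 (nasal -2.02). DST, a giant cytoskeletal linker, had 727 CPM at 90 days, against 4854 CPM at 50 days, SYNE2, which ties the nucleus to the cytoskeleton, had 264 CPM at 90 days, against 2631 CPM at 50 days, and TTN had 0.405 CPM at 90 days, against 32.4 CPM at 50 days. Of 26 housekeeping genes, 14 were 2-fold higher and 1, TFRC, lower, with a median of 1.15. The medians of the lists below stand beside this value and 0.16 over all genes. EEF1A1, a translation elongation factor, had 1708 CPM at 90 days, against 54.2 CPM at 50 days, and GAPDH had 1578 CPM at 90 days, against 233 CPM at 50 days, while TBP had 34.4 CPM at 90 days, against 27.5 CPM at 50 days and VCP had 379 CPM at 90 days, against 408 CPM at 50 days. The part of read layout or RNA selection in these shifts was not tested.

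**Figure D1:**
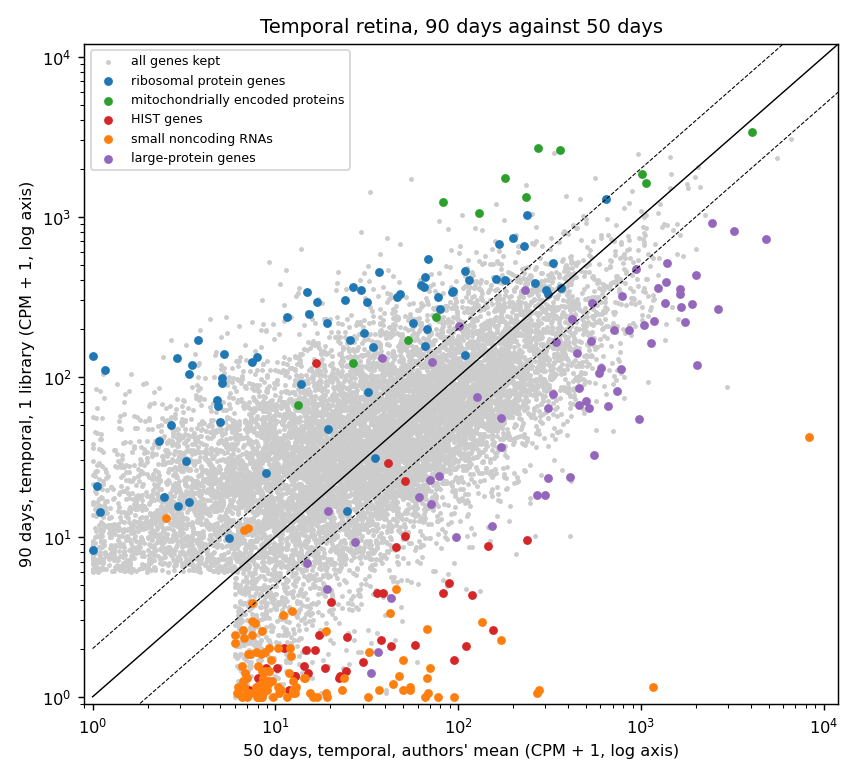
Levels of the 12367 genes in temporal retina, with the 90-day library on the vertical axis and the authors' 50-day mean on the horizontal axis, both as CPM + 1 on log axes. The solid line marks equal levels and the dashed lines a 2-fold difference. Ribosomal protein genes lie mostly above the upper dashed line, and small noncoding RNAs, HIST genes and large-protein genes mostly below the lower one.

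Progenitor transcription factors were mostly higher at 90 days. Of 24 kept, 16 were 2-fold higher and 2 lower, with a median log2 ratio of 1.86, above that of housekeeping genes. The largest ratio was that of HMX1, a homeobox factor known from mouse and chick for the nasal eye, with 102 CPM at 90 days, against 0.612 CPM at 50 days. On the nasal side HMX1 was higher at both ages, with 174 CPM at 90 days, against 2.24 CPM at 50 days. SOX2, which maintains progenitors, had 195 CPM at 90 days, against 7.90 CPM at 50 days, and HES5, a Notch effector, had 113 CPM at 90 days, against 4.79 CPM at 50 days. The 2 lower factors were MEIS1, with 166 CPM at 90 days, against 427 CPM at 50 days, and FOXP1, an early progenitor factor, with 34.3 CPM at 90 days, against 87.9 CPM at 50 days.

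Genes tied to early developmental time differed among themselves. Of 17 kept, 8 were 2-fold higher and 2 lower, with a median of 0.77. PRTG, a receptor of early progenitors, was the lowest, with 5.11 CPM at 90 days, against 73.7 CPM at 50 days (log2 ratio -3.61), and IGF2BP3, a fetal RNA-binding protein, had 95.4 CPM at 90 days, against 295 CPM at 50 days. LIN28B, which blocks let-7 maturation, was under the limit with 0.809 CPM at 90 days, against 3.07 CPM at 50 days, and LIN28A had 0 reads at 90 days and was listed at 0 at 50 days. HMGA1, a chromatin protein of dividing cells, had 204 CPM at 90 days, against 24.3 CPM at 50 days. The nuclear factors I, which mark late progenitors and glia, differed among themselves. NFIX had 28.8 CPM at 90 days, against 0.841 CPM at 50 days, whereas NFIA had 16.5 CPM at 90 days, against 33.5 CPM at 50 days and NFIB had 40.6 CPM at 90 days, against 59.9 CPM at 50 days. SFRP2, a secreted Wnt modulator, had 134 CPM at 90 days, against 42.6 CPM at 50 days, and its relative SFRP1 had 96.3 CPM at 90 days, against 131 CPM at 50 days.

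Proneural and neurogenic factors were 2-fold higher in 8 of 18 and lower in 2. ATOH7, which makes progenitors competent for the ganglion cell fate, had 14.0 CPM at 90 days, against 0.755 CPM at 50 days. NEUROG2 had 20.5 CPM at 90 days, against 0.897 CPM at 50 days, and BHLHE22 had 46.6 CPM at 90 days, against 0.698 CPM at 50 days. The lower members were SOX11, with 626 CPM at 90 days, against 2003 CPM at 50 days, and ST18, with 61.6 CPM at 90 days, against 190.3 CPM at 50 days.

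Genes of the dividing cell were counted by phase. Of 20 genes of G1 and S entry, 6 were 2-fold higher and 2 lower, with a median of -0.01 that turned positive when each column was scaled to the same sum or to a median ratio of 1. CCND1, the main cyclin D of retinal progenitors, had 676 CPM at 90 days, against 260.4 CPM at 50 days. CDKN2D, an inhibitor of the G1 kinases, had 70.1 CPM at 90 days, against 12.4 CPM at 50 days, and the S-phase repressor E2F7 had 24.8 CPM at 90 days, against 75.4 CPM at 50 days. Of 38 replication genes, 6 were higher and 8 lower, with a median of -0.12 that also turned positive on scaling to the same sum. CDT1, which licenses origins, had 33.0 CPM at 90 days, against 1.53 CPM at 50 days, and POLA1, of the priming polymerase, had 99.5 CPM at 90 days, against 279 CPM at 50 days.

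Of 40 mitotic genes, 4 were 2-fold higher and 15 lower, with a median of -0.62, against 0.16 over all genes. The lowest were ASPM, a spindle pole protein, with 110.5 CPM at 90 days, against 775 CPM at 50 days, CENPF, a kinetochore protein, with 286 CPM at 90 days, against 1349 CPM at 50 days, and CENPE, its motor, with 77.1 CPM at 90 days, against 331 CPM at 50 days. These 3 are also on the list of large-protein genes. The higher members were AURKB, CDC20, BIRC5 and UBE2C. UBE2C, which feeds cyclin destruction, had 28.9 CPM at 90 days, against 8.93 CPM at 50 days, and AURKB, a kinase of chromosome segregation, had 35.8 CPM at 90 days, against 15.3 CPM at 50 days. CCNB1 and CDK1, which together drive entry into mitosis, had 68.0 CPM at 90 days against 90.7 CPM at 50 days and 81.6 CPM at 90 days against 115 CPM at 50 days.

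Notch pathway genes were 2-fold higher in 14 of 27 and lower in 4, with a median of 1.02, below that of housekeeping genes. The receptors did not move alike. NOTCH1 had 397 CPM at 90 days, against 31.6 CPM at 50 days and NOTCH3 had 84.5 CPM at 90 days, against 8.81 CPM at 50 days, whereas NOTCH2 had 72.6 CPM at 90 days, against 207 CPM at 50 days. The ligand DLL1 had 49.5 CPM at 90 days, against 13.8 CPM at 50 days. NUMBL, a cytoplasmic antagonist, had 50.0 CPM at 90 days, against 2.82 CPM at 50 days. The lower members, beside NOTCH2, were the transcription factor of the pathway RBPJ, with 127 CPM at 90 days, against 279.8 CPM at 50 days, the ligand-activating ligase MIB1, with 81.8 CPM at 90 days, against 359 CPM at 50 days, and the receptor-cleaving protease ADAM17, with 29.4 CPM at 90 days, against 66.5 CPM at 50 days.

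Wnt genes were higher in 12 of 28 and lower in 4. Among the Frizzled receptors, FZD8 had 62.0 CPM at 90 days, against 1.85 CPM at 50 days and FZD5 had 46.1 CPM at 90 days, against 2.44 CPM at 50 days, while FZD3 had 66.3 CPM at 90 days, against 422 CPM at 50 days and FZD4, the receptor for norrin in retinal vessel growth, had 1.57 CPM at 90 days, against 10.4 CPM at 50 days. The co-receptor LRP6 had 71.8 CPM at 90 days, against 435 CPM at 50 days. In the Hedgehog pathway 5 of 13 were higher and 2 lower. SHH, the ligand that ganglion cells release, had 5.21 CPM at 90 days, against 3.80 CPM at 50 days, its target GLI1 had 12.2 CPM at 90 days, against 1.77 CPM at 50 days, and the co-receptor CDON had 60.8 CPM at 90 days, against 258 CPM at 50 days. FGF genes were higher in 5 of 17 and lower in 3, with FGF8 at 5.82 CPM at 90 days, against 1.47 CPM at 50 days. BMP and TGF-beta genes were higher in 7 of 26 and lower in 6. The higher ones included the inhibitors of basic helix-loop-helix factors ID3, with 95.9 CPM at 90 days, against 5.18 CPM at 50 days, and ID4, with 22.9 CPM at 90 days, against 0.772 CPM at 50 days. BMPR1B, a receptor, had 0.607 CPM at 90 days, against 12.4 CPM at 50 days.

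Retinoic acid genes were higher in 6 of 17 and lower in 5. The synthetic enzymes were lower at 90 days. ALDH1A3 had 9.05 CPM at 90 days, against 262 CPM at 50 days and ALDH1A1 had 55.3 CPM at 90 days, against 127 CPM at 50 days, and CYP1B1, which can also make retinoic acid, had 0.657 CPM at 90 days, against 58.2 CPM at 50 days. CYP26A1, which degrades it, had 28.7 CPM at 90 days, against 6.84 CPM at 50 days. The receptors RXRA and RARA had 21.3 CPM at 90 days against 0.601 CPM at 50 days and 170.1 CPM at 90 days against 23.7 CPM at 50 days.

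**Figure D2:**
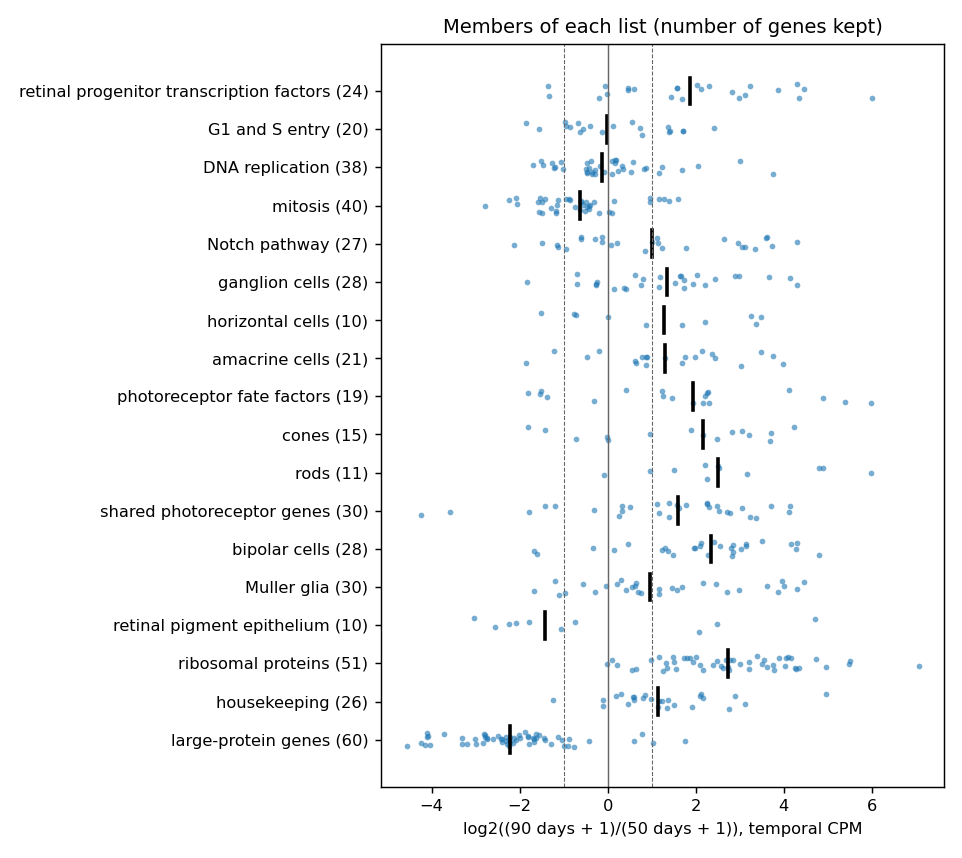
Each point is a gene of 5 CPM or more, placed by its log2 ratio of 90 over 50 days in temporal retina. Rows are gene lists with the number of genes kept (1 row of the table per symbol), black bars are medians, and dashed lines mark a 2-fold difference. The medians lie at 2.73 for ribosomal proteins, 2.35 for bipolar cells, -0.62 for mitosis and -2.22 for large-protein genes.

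Among the first-born neurons, ganglion cell genes were 2-fold higher in 16 of 28 and lower in 1, with a median of 1.35, against 1.15 over housekeeping genes. In bulk tissue, more cells of a type and more RNA per cell cannot be told apart. SNCG, a synuclein of ganglion cells, had 221 CPM at 90 days, against 10.2 CPM at 50 days, IRX2 had 71.2 CPM at 90 days, against 3.07 CPM at 50 days, and the fate factor POU4F1 had 32.3 CPM at 90 days, against 1.60 CPM at 50 days. RBPMS, an RNA-binding marker of these cells, had 159 CPM at 90 days, against 47.3 CPM at 50 days, and ISL1 had 85.8 CPM at 90 days, against 77.9 CPM at 50 days. The single lower member was CNTN2, an adhesion molecule of growing axons, with 81.9 CPM at 90 days, against 294 CPM at 50 days, and DCX, a microtubule protein of young neurons, had 175 CPM at 90 days, against 286 CPM at 50 days. Horizontal cell genes were higher in 5 of 10, with LHX1 at 15.5 CPM at 90 days, against 0.726 CPM at 50 days and the calcium buffer CALB1 at 31.2 CPM at 90 days, against 2.12 CPM at 50 days. ONECUT1, which acts early in horizontal and cone precursors, was the lower one, with 51.8 CPM at 90 days, against 151 CPM at 50 days. Amacrine genes were higher in 11 of 21 and lower in 2. SLC32A1, which loads GABA and glycine into vesicles, had 32.4 CPM at 90 days, against 1.12 CPM at 50 days, TFAP2A had 121 CPM at 90 days, against 9.96 CPM at 50 days, and GAD2, which makes GABA, had 51.0 CPM at 90 days, against 32.3 CPM at 50 days.

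Photoreceptor fate factors were 2-fold higher in 13 of 19 and lower in 4, with a median of 1.93, also above that of housekeeping genes. NRL, the switch to the rod fate, had 168 CPM at 90 days, against 1.69 CPM at 50 days, with a 95% exact Poisson interval of 162 to 174 CPM at 90 days that covers counting error only. Its target NR2E3 had 33.1 CPM at 90 days, against 0.143 CPM at 50 days, and RAX2 had 43.6 CPM at 90 days, against 0.0572 CPM at 50 days. The 4 lower members were THRB, the receptor that directs red and green cones, with 58.2 CPM at 90 days, against 206 CPM at 50 days, ONECUT1 (above), RORB, with 288 CPM at 90 days, against 746 CPM at 50 days, and RORA, with 12.5 CPM at 90 days, against 38.4 CPM at 50 days. PRDM1, which keeps precursors from the bipolar fate, had 184 CPM at 90 days, against 228 CPM at 50 days.

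Cone genes were higher in 9 of 15 kept and lower in 2. The lower ones were THRB (above) and KCNB2, with 14.6 CPM at 90 days, against 40.5 CPM at 50 days. SLC17A7, the glutamate transporter of photoreceptor and bipolar vesicles, had 144 CPM at 90 days, against 6.73 CPM at 50 days. KCNV2, a potassium channel subunit also on the list that rods and cones share, had 30.8 CPM at 90 days, against 1.42 CPM at 50 days. GUCA1C, a cone activator of guanylate cyclase, had 12.4 CPM at 90 days, against 0.0457 CPM at 50 days. The cone opsins were near 0 at both ages. OPN1SW had 0.455 CPM at 90 days, against 0.229 CPM at 50 days and OPN1LW had 0.303 CPM at 90 days and was listed at 0 at 50 days, and the cone arrestin ARR3 had 1.57 CPM at 90 days, against 0.429 CPM at 50 days. PDE6C, the cone phosphodiesterase, had 17.3 CPM at 90 days, against 17.3 CPM at 50 days. Rod genes were higher in 9 of 11 kept and lower in none. ROM1, of the outer segment rim, had 46.6 CPM at 90 days, against 0.698 CPM at 50 days. GNAT1, the rod transducin, was under the limit with 1.72 CPM at 90 days, against 0.177 CPM at 50 days. Of 30 genes that rods and cones share, 20 were higher and 5 lower. RCVRN, a calcium sensor, had 385 CPM at 90 days, against 20.8 CPM at 50 days and AIPL1, a chaperone of the phosphodiesterase, had 170.1 CPM at 90 days, against 8.79 CPM at 50 days. Among the lower ones were PCDH15 with 4.05 CPM at 90 days against 59.2 CPM at 50 days, CEP290 with 78.5 CPM at 90 days against 276 CPM at 50 days, RPGRIP1 with 7.03 CPM at 90 days against 20.4 CPM at 50 days and CRB1 with 336 CPM at 90 days against 767 CPM at 50 days.

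Bipolar genes were 2-fold higher in 23 of 28 kept, with 2 lower and a median of 2.35. VSX1, a factor of cone bipolar cells, had 48.6 CPM at 90 days, against 5.08 CPM at 50 days (interval 45.6 to 51.8 CPM at 90 days). GRM6, the glutamate receptor of ON bipolar cells, had 51.2 CPM at 90 days, against 4.89 CPM at 50 days, and TRPM1, the channel it closes, had 20.1 CPM at 90 days, against 1.91 CPM at 50 days. PCP2 had 22.7 CPM at 90 days, against 0.194 CPM at 50 days and LHX3 had 59.4 CPM at 90 days, against 2.11 CPM at 50 days. PRKCA, which marks rod bipolar cells, had 54.7 CPM at 90 days, against 69.4 CPM at 50 days. The lower ones were ZFHX4, also a large-protein gene, with 166 CPM at 90 days against 529.9 CPM at 50 days, and ST18 (above).

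**Figure D3:**
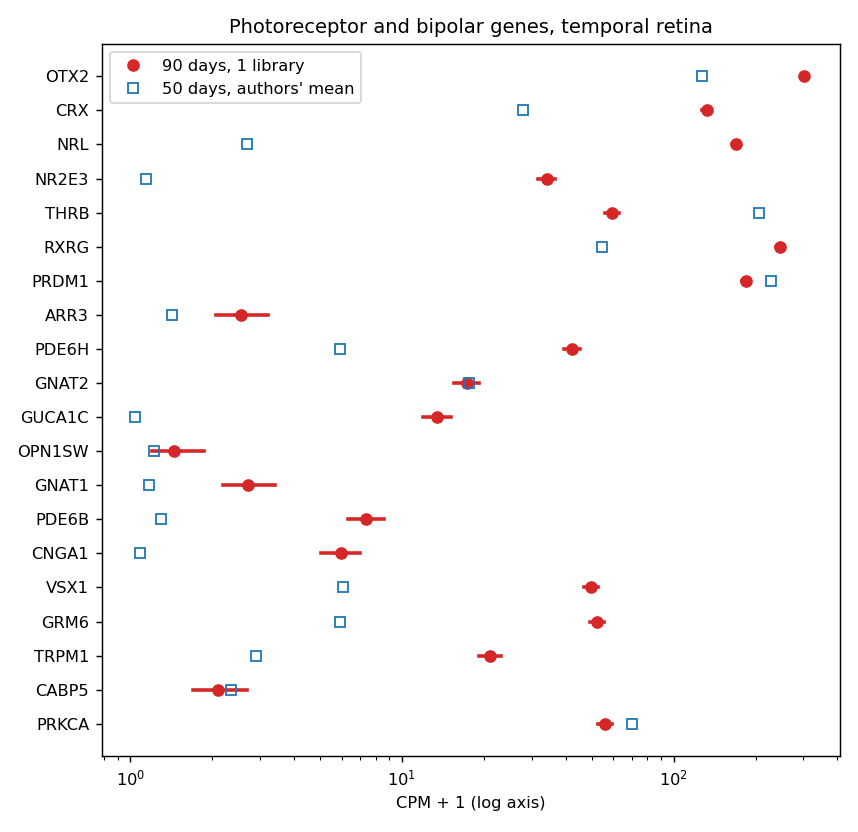
Levels of photoreceptor and bipolar genes in temporal retina as CPM + 1 on a log axis, with filled circles for the 90-day library (bars are 95% exact Poisson intervals, counting error only) and open squares for the authors' 50-day mean, which has no error. NRL, NR2E3, VSX1 and GRM6 lie far to the right at 90 days, the 90-day interval of OPN1SW includes the 50-day value, and THRB lies to the left.

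Muller glia genes were higher in 15 of 30 and lower in 3, with a median of 0.96, below that of housekeeping genes. Several of the highest, SOX2, HES5 and NFIX, are shared with progenitors. RLBP1, which binds retinaldehyde, had 52.7 CPM at 90 days, against 22.8 CPM at 50 days, and GLUL, which makes glutamine, had 223 CPM at 90 days, against 143 CPM at 50 days. The channel KCNJ2 had 2.02 CPM at 90 days, against 5.95 CPM at 50 days, and SLC4A4, a bicarbonate transporter, had 4.05 CPM at 90 days, against 15.1 CPM at 50 days.

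Markers of other cells that a punch could hold were also read. Of 10 pigment epithelium genes kept, 3 were higher and 6 lower, and RPE65 and TYR, which define it, had 1.77 CPM at 90 days against 4.60 CPM at 50 days and 1.01 CPM at 90 days against 0.286 CPM at 50 days. The pigment epithelium list summed to 194 CPM at 90 days and 739 CPM at 50 days, of which TRPM3 alone had 77.1 CPM at 90 days against 639 CPM at 50 days. The endothelial genes PECAM1 and CDH5 had 1.21 and 0.556 CPM at 90 days, against 0.532 CPM and a listed 0 at 50 days, and KDR, which progenitors also express, made up most of that list with 628 CPM at 90 days against 854 CPM at 50 days. Of 6 mesenchyme genes kept, 2 were higher and 3 lower, and the list summed to 715 CPM at 90 days and 1310 CPM at 50 days. COL6A3 made up most of it, with 470 CPM at 90 days against 804 CPM at 50 days. FBN1 had 68.0 CPM at 90 days against 410 CPM at 50 days, and COL1A1 had 0.405 CPM against 0.887 CPM. Of 4 mural cell genes kept, 2 were higher and 2 lower. No erythroid gene was kept, and the erythroid list summed to 5.82 CPM at 90 days and 1.05 CPM at 50 days. Of microglial genes 3 were kept, with CSF1R at 10.2 CPM at 90 days, against 0.566 CPM at 50 days, C1QC at 5.11 CPM at 90 days, against 0.498 CPM at 50 days, and CD163 lower at 9.46 CPM at 90 days, against 24.8 CPM at 50 days. The astrocyte genes GFAP and PAX2 had 0.152 CPM at 90 days against 0.2004 CPM at 50 days and 0.101 CPM at 90 days against 0.601 CPM at 50 days. Of the lens list CRYAA had 263 CPM at 90 days, against 36.3 CPM at 50 days, whereas CRYBA1 had 0 reads at 90 days and was listed at 0 at 50 days. Of 8 ciliary margin genes kept, 4 were higher and 1 lower, and the list summed to 398 CPM at 90 days and 247 CPM at 50 days. The higher ones were SFRP2 (above), RSPO2, with 100.2 CPM at 90 days against 17.6 CPM at 50 days, WFDC1, with 35.8 CPM against 8.12 CPM, and ZIC1, with 10.9 CPM against 3.43 CPM. The lower one was GJA1, also on the astrocyte list, with 10.6 CPM at 90 days against 46.9 CPM at 50 days. RDH10 had 55.2 CPM at 90 days against 67.6 CPM at 50 days. OTX1 and MSX1 had 0.405 CPM at 90 days against 0.0573 CPM at 50 days and 0.354 CPM at 90 days against 0.326 CPM at 50 days.

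Maturing neurons exchange members of several protein complexes and channels, and such pairs were followed. In the BAF chromatin remodelling complex, the neuronal subunits ACTL6B, DPF1 and SS18L1 had 64.8 CPM at 90 days against 9.64 CPM at 50 days, 21.5 CPM at 90 days against 4.63 CPM at 50 days and 28.7 CPM at 90 days against 5.55 CPM at 50 days, whereas DPF3 had 6.07 CPM at 90 days against 8.48 CPM at 50 days. Their progenitor counterparts ACTL6A and SS18 had 91.6 CPM at 90 days against 106 CPM at 50 days and 79.9 CPM at 90 days against 129 CPM at 50 days, and DPF2 had 81.2 CPM at 90 days against 33.9 CPM at 50 days. No BAF subunit was 2-fold lower, and 8 of 22 were higher. SLC12A5, which lowers neuronal chloride, had 43.9 CPM at 90 days, against 6.65 CPM at 50 days, and SLC12A2, which raises it, had 45.2 CPM at 90 days, against 116 CPM at 50 days. The splicing repressors went against the usual order of the exchange, in which PTBP1 gives way to PTBP2. PTBP1 had 203 CPM at 90 days, against 47.0 CPM at 50 days and PTBP2 had 302 CPM at 90 days, against 561 CPM at 50 days. REST, which silences neuronal genes, had 46.9 CPM at 90 days, against 154 CPM at 50 days, and its partner RCOR2 had 183 CPM at 90 days, against 58.2 CPM at 50 days. Of the sodium channels SCN3A and SCN8A had 195 CPM at 90 days against 492 CPM at 50 days and 45.1 CPM at 90 days against 112 CPM at 50 days, and SCN2A had 133 CPM at 90 days against 144 CPM at 50 days. EZH2, the Polycomb methyltransferase of dividing cells, had 106 CPM at 90 days, against 219 CPM at 50 days, and EZH1 had 70.9 CPM at 90 days, against 86.6 CPM at 50 days. RBFOX3, a splicing factor of mature neurons, had 43.8 CPM at 90 days, against 2.58 CPM at 50 days.

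Energy genes were higher in number. Of 39 nuclear genes of oxidative phosphorylation, 27 were 2-fold higher and 1, NDUFS1, lower with 78.1 CPM at 90 days against 197 CPM at 50 days, and the median was 1.42. ATP5D had 89.0 CPM at 90 days, against 0.881 CPM at 50 days, and UQCRB had 79.3 CPM at 90 days, against 71.2 CPM at 50 days. CKB, which buffers ATP, was counted among the 39 though it is not itself a gene of oxidative phosphorylation. It had 1429 CPM at 90 days, against 32.1 CPM at 50 days. Of 25 glycolytic genes, 16 were higher and 3 lower, with a median of 1.15. PGAM1 had 66.5 CPM at 90 days, against 1.05 CPM at 50 days and ALDOA had 358 CPM at 90 days, against 12.4 CPM at 50 days. HK2 and HK1, which trap glucose, had 40.8 CPM at 90 days against 11.04 CPM at 50 days and 347 CPM at 90 days against 158 CPM at 50 days, and LDHA and LDHB had 266 CPM at 90 days against 74.0 CPM at 50 days and 90.7 CPM at 90 days against 44.5 CPM at 50 days. These medians lie near that of housekeeping genes, 1.15.

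The nasal side offered the same pair of ages and read layouts. Of the 3993 genes 2-fold higher on the temporal side, 3332 (83.4%) passed the same limit on the nasal side, as did 2220 (81.7%) of the 2716 lower genes. Over all 12391 genes of 5 CPM or more in either nasal column, 27.8% were 2-fold higher and 19.5% lower. The columns of the 2 sides share their ages and layouts, so these shares are a description. The temporal ratio was below the nasal one in 44.2% of all genes, at least 1 log2 unit above it in 2.27% and at least 1 unit below it in 0.226%.

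Mitotic genes had a temporal ratio below the nasal one in 40 of 40, by a median of -0.66 (log2). TOP2A, which untangles chromosomes and is on the replication list, had 550.5 CPM at 90 days against 1261 CPM at 50 days on the temporal side and 785 CPM at 90 days against 1045 CPM at 50 days on the nasal side. The replication list had 33 of 38 below, with a median of -0.35. Ganglion cell genes lay the other way, with 2 of 28 below and a median difference of 0.57, and bipolar genes had 6 of 28 below, a median of 0.66, and 8 at least 1 unit above. Other gene classes also differed between the sides. Ribosomal protein genes had a higher temporal ratio, by a median of 0.27, and nuclear oxidative phosphorylation genes were below in 4 of 39, with a median of 0.30. The mitochondrially encoded mRNAs were below in 13 of 13, with a median of -0.25, and the large-protein genes in 43 of 60, with a median of -0.15. The part of these classes in the differences above was not tested.

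**Figure D4:**
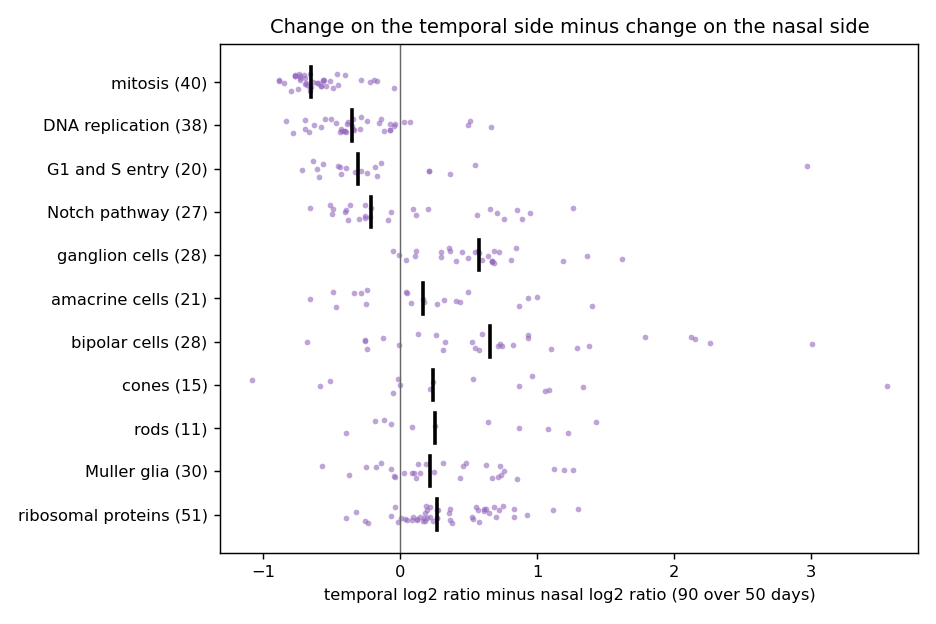
Each point is a gene of 5 CPM or more in temporal retina, placed by its temporal log2 ratio of 90 over 50 days minus its nasal one, with black bars for list medians. All 40 mitotic genes lie left of 0, and the medians of ganglion and bipolar genes are 0.57 and 0.66.

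The genes with the largest excess on the temporal side were led by NPVF, a neuropeptide precursor, with 39.6 CPM at 90 days against 0.115 CPM at 50 days on the temporal side and 0.0941 CPM at 90 days and a listed 0 at 50 days on the nasal side. TRPM1 had 20.1 CPM at 90 days against 1.91 CPM at 50 days on the temporal side and 3.06 CPM at 90 days against 3.50 CPM at 50 days on the nasal side. CYP26A1 had 28.7 CPM at 90 days against 6.84 CPM at 50 days on the temporal side and 1.60 CPM at 90 days against 3.33 CPM at 50 days on the nasal side. IGF1, a growth factor, had 20.6 CPM at 90 days against 4.01 CPM at 50 days on the temporal side and 2.45 CPM at 90 days against 5.15 CPM at 50 days on the nasal side, and KRT7 had 136 CPM at 90 days against 3.66 CPM at 50 days on the temporal side and 24.3 CPM at 90 days against 3.25 CPM at 50 days on the nasal side. GUCA1C and PAPLN were also among the 10 largest, and GUCA1C was listed in 2 rows, the second with 7.94 CPM at 90 days against 0.258 CPM at 50 days on the temporal side and 0.611 CPM at 90 days against 0.752 CPM at 50 days on the nasal side.

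The genes with the largest deficit were FN1, SPARCL1, CYP1B1 and L1TD1. FN1, fibronectin, had 9.56 CPM at 90 days against 27.7 CPM at 50 days on the temporal side and 124 CPM at 90 days against 59.1 CPM at 50 days on the nasal side. SPARCL1, a matrix protein, had 1.06 CPM at 90 days against 12.1 CPM at 50 days on the temporal side and 85.0 CPM at 90 days against 96.1 CPM at 50 days on the nasal side. L1TD1 had 4.20 CPM at 90 days against 23.4 CPM at 50 days on the temporal side and 17.9 CPM at 90 days against 19.3 CPM at 50 days on the nasal side. NID1, of the basement membrane, had 3.59 CPM at 90 days against 5.32 CPM at 50 days on the temporal side and 22.4 CPM at 90 days against 11.9 CPM at 50 days on the nasal side. On the nasal side at 90 days, markers of vessels and astrocytes were also higher than on the temporal side, with PECAM1 at 16.7, CDH5 at 12.9 and GFAP at 15.5 CPM, and their part in the deficits was not tested.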

How the data were processed

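Total RNA was depleted of ribosomal RNA according to the paper, whereas the labels name polyA RNA. The paper names Bowtie2, Tophat and Cufflinks, the build Mmul_1 and Ensembl annotation, and the labels name edgeR; none of the sources used here says which program counted reads. The authors deposited CPM for the 90-day libraries, and at 50 days their mean per side, treated as a signal on the CPM scale. All 90-day temporal values were whole reads within 0.01 reads. The miRNA table, which also holds the authors' edgeR fold changes, was not used. No sample column was left out, and no count test could be run, since the 50-day reads are not in the table used here.

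Of 28633 rows, 22213 had a symbol, 700 of them from a table of gene names. A list used 1 row per symbol, the one with the higher temporal mean. A pseudocount of 1 was added. Members and 44 lists were chosen with earlier results of these data known. The 3 lists of large-protein genes, histone variants and mitochondrially encoded mRNAs were made after the values were seen. Named genes were the 15 largest ratios per direction, the 10 highest levels per age, the first 4, the 3 highest and 3 lowest members of each list, and its 2-fold members where 5 or fewer, the 10 largest differences from the nasal side per direction, and switch pairs. Some genes that meet this rule are not reported here. TOP2A and a few marker genes were named after their values were seen. Intervals are 95% exact Poisson. The calculation of ratios was checked on simulated columns with set folds, in which only counting error was added, and only at 90 days. That check does not cover differences between animals, read layouts or RNA classes. Computation was done in Python 3.11.15 with pandas 2.3.3, NumPy 2.4.6, SciPy 1.17.1, and drawing with Matplotlib 3.10.9.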

Additional observations from a re-analysis of the deposited data

Results flagged for a closer look

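Among genes with a symbol, 3 differed 2-fold in opposite directions on the 2 sides of the retina between 90 and 50 days. These differences were not tested, since each side had 1 library at 90 days. CDKN1A, an inhibitor of cyclin-dependent kinases, had 52.4 CPM (interval 49.3 to 55.7) at 90 days and 15.2 CPM at 50 days on the temporal side, a log2 ratio of 1.72. On the nasal side it had 4.47 CPM at 90 days and 12.01 CPM at 50 days. WFDC1, a secreted protease inhibitor, had 35.8 CPM at 90 days against 8.12 CPM at 50 days on the temporal side, a log2 ratio of 2.01, and 5.69 CPM at 90 days against 15.4 CPM at 50 days on the nasal side. FN1, fibronectin, had 9.56 CPM at 90 days against 27.7 CPM at 50 days on the temporal side, a log2 ratio of -1.44, and 124 CPM at 90 days against 59.1 CPM at 50 days on the nasal side.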

How the results depend on the processing

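Under 9 other settings, the counts of genes 2-fold higher and lower stayed within 1.5 times 3993 and 2716. Another setting, chosen after seeing the data, left out the small noncoding, HIST, ribosomal protein and mitochondrially encoded rows. It kept 12142 of 12367 genes, large-protein genes among them, so its counts could not have moved that far. Over all these settings the counts ran between 3438 and 4571 higher and between 2285 and 3552 lower on the temporal side. The nasal columns gave 3445 and 2414. The median log2 ratio was 0.10 over genes of 1 CPM or more, 0 with no filter on low values, 0.33 with both columns scaled to the same sum (a shift of 0.17 in that median), and 0.12 in the nasal columns. With the nasal columns in place of the temporal ones, 9 named genes that were 2-fold higher or lower on the temporal side changed sign: GUCA1C in its second row (-0.12), IGF1 (-0.84), CDKN1A (-1.25), WFDC1 (-1.29), TRPM1 (-0.15), CYP26A1 (-0.74), PAPLN (-0.31), TEK (0.58) and FN1 (1.06). The cause was not tested. Over the same settings and with CPM summed over rows that share a symbol, also chosen after seeing the data, 878 list counts stayed within 1.5 times the reported ones and 62 did not. Of the values of single genes, 3522 lay within the 90-day counting interval and 1119 outside it, beside those 9. The medians of the G1 and replication lists also turned positive in the nasal columns (0.02 and 0.26), where that of mitotic genes was -0.08. Those of the BMP and cholesterol lists did too, and the endothelial and ciliary margin medians, -0.44 and 0.81 in the temporal columns, were 2.33 and -0.26 in the nasal ones. The median of the early-state list, 0.77, was -0.13 with no filter on low values. Leaving out single replicates was not possible, because only the 50-day mean was deposited in the table used and 90 days had 1 library. No paired analysis was possible because the result comes from no test and the columns at 50 days carry no replicate numbers. Depth limits the lowest 90-day values, since 0 reads allow up to 0.152 CPM when 3 reads are taken as the limit, and up to 0.187 CPM by the two-sided exact Poisson interval (LIN28A).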
